A study of Mus musculus with 12 samples.

Results

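The refeeding difference was measured in mouse livers labelled as lacking FoxO1, FoxO3 and FoxO4 in hepatocytes, by setting the 3 refed arrays of this genotype (labelled L-FoxO1,3,4 and called KO here) against its 3 fasted arrays. These 6 arrays, of 12 in the series, were chosen by their genotype and feeding labels. The refed KO livers were collected after 4 h of refeeding and the fasted KO livers after 22 h of fasting; that the refed mice had first been fasted is not stated in the labels. WT littermate livers, 3 refed and 3 fasted in the same way, are used only for comparison. All mice were on a mixed C57BL/6J and 129 background and were matched for age and sex, with neither value given. Neither the Cre line that drives the deletion nor the deleted exons are named in the labels, and nothing states that each array is a separate animal, so the spread between arrays may be technical in part.

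FoxO factors are transcription factors of the fasted liver. When insulin signals after a meal, Akt phosphorylates them and they leave the nucleus, which lowers transcription of targets such as the gluconeogenic genes G6pc and Pck1 and the insulin-signalling gene Irs2. Refeeding also acts through factors other than FoxO, among them SREBP-1c and ChREBP, which drive lipogenic and glycolytic genes. The comparison asks which feeding differences are seen when hepatocytes have no FoxO.

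Each array held log2 values for 23238 features. A table of the array's annotation paired 14939 features with 1 gene, 989 with several genes and 7310 with none. Array medians lay between 5.81 and 5.83 in refed KO livers and between 5.83 and 5.89 in fasted KO livers. In bulk liver, a lower level per cell and fewer cells of a type cannot be told apart. Of 4 hepatocyte markers 2 were found, Alb and Ttr, near the top of the scale, and their summed linear level was 31620 to 34750 in refed KO livers and 31314 to 31462 in fasted KO livers. All 4 Kupffer cell and macrophage markers were found and summed to 2077 to 3079 in refed and 1738 to 2362 in fasted KO livers. This sum mostly follows Vsig4, the brightest of them, and the markers did not move together. The log2 differences were 0.40 for Vsig4, -0.24 for Clec4f, 0.01 for Cd68 and 0.07 for Adgre1. Both adipose markers were found: Adipoq was low, at 3.15 to 3.21 in refed KO livers and 3.21 to 3.64 in fasted KO livers, while Plin1 lay above the array medians, at 6.32 to 6.52 in refed and 6.36 to 6.52 in fasted KO livers. None of the markers of 9 cell types passed the test, and the part of other cell types in the differences below was not tested. The Y-linked genes Kdm5d and Eif2s3y had similar levels in all 12 arrays, 7.10 to 7.60 and 8.40 to 9.17 on the log2 scale.

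None of the 3 targeted genes had a genotype difference that passed the test. Foxo1 had log2 values of 8.47, 8.35 and 8.91 in refed KO livers and 9.18, 9.33 and 9.41 in fasted KO livers, against 9.04, 9.02 and 8.84 in refed WT and 9.53, 9.65 and 9.48 in fasted WT livers. Foxo3 lay between 7.64 and 8.03 in the KO arrays and between 7.86 and 8.10 in the WT arrays. Foxo4 lay between 5.68 and 7.35 in the KO arrays and between 5.86 and 7.70 in the WT arrays. The KO minus WT log2 difference of Foxo1 was -0.25 in fasted livers (limma on 12 arrays, adjusted p = 0.579) and -0.39 in refed livers (adjusted p = 0.235). Whether these features cover deleted exons is not known, and livers hold other cells, so these values do not check the deletion.

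1 array stood apart the most. Refed KO replicate 1, whose title alone carries a suffix, differed from the other refed KO arrays with SDs over features of 0.590 and 0.532, while those arrays differed from each other with an SD of 0.385. The 3 pairs of fasted KO arrays gave 0.382 to 0.418. Refed replicate 1 was the lowest of the 6 KO arrays in 30.9% of features and the highest in 20.8%. Refed replicates 2 and 3 differed from the fasted arrays with SDs of 0.359 to 0.448, which overlaps the range within the fasted group. Fasted replicate 3 was nearer to refed replicates 2 and 3 (0.380 and 0.359) than to fasted replicates 1 and 2 (0.418 and 0.402). For the 20 genes named by rule and for the gene lists, the values without replicate 1 are given too.

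No feature passed the test between refed and fasted KO livers. Of 23238 features, 0 passed at an adjusted p of 0.05 (0%; limma on the 6 KO arrays), and the smallest adjusted p was 0.725. Before adjustment 1548 features (6.66%) had a p under 0.05, of which 341 (1.47%) were higher and 1207 (5.19%) lower in refed livers. Without refed replicate 1 the counts were 0 (smallest adjusted p 0.755) and 1506 (6.48%). At a log2 difference of at least 1, 72 features (0.31%) were higher and 83 (0.357%) lower in refed KO livers. Without refed replicate 1 these counts were 72 (0.31%) and 89 (0.383%), but only 84 of the 155 features were past that size in both sets of arrays. Differences ran from -3.31 to 3.31.

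Refed arrays lay more often below than above the fasted arrays. All 3 refed KO arrays were below all 3 fasted ones in 2167 features (9.33%) and above them in 813 (3.5%), so the split was uneven. The excess was in bright features. In the brightest of 5 equal groups of features by mean level, 16.1% of features lay below and 2.04% above, with a median log2 difference of -0.14, whereas in the dimmest group 4.04% lay below and 5.79% above, with a median of 0.02. Cyclic loess on the same arrays gave 1316 below and 1237 above, and median centring gave 1569 and 1378, so the balance of directions depended on the scaling. The brightest group had 7.40% below and 6.54% above after cyclic loess, but 12.3% below and 3.33% above after median centring. The dimmest group had 2.24% below and 10.5% above after median centring.

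**Figure D1:**
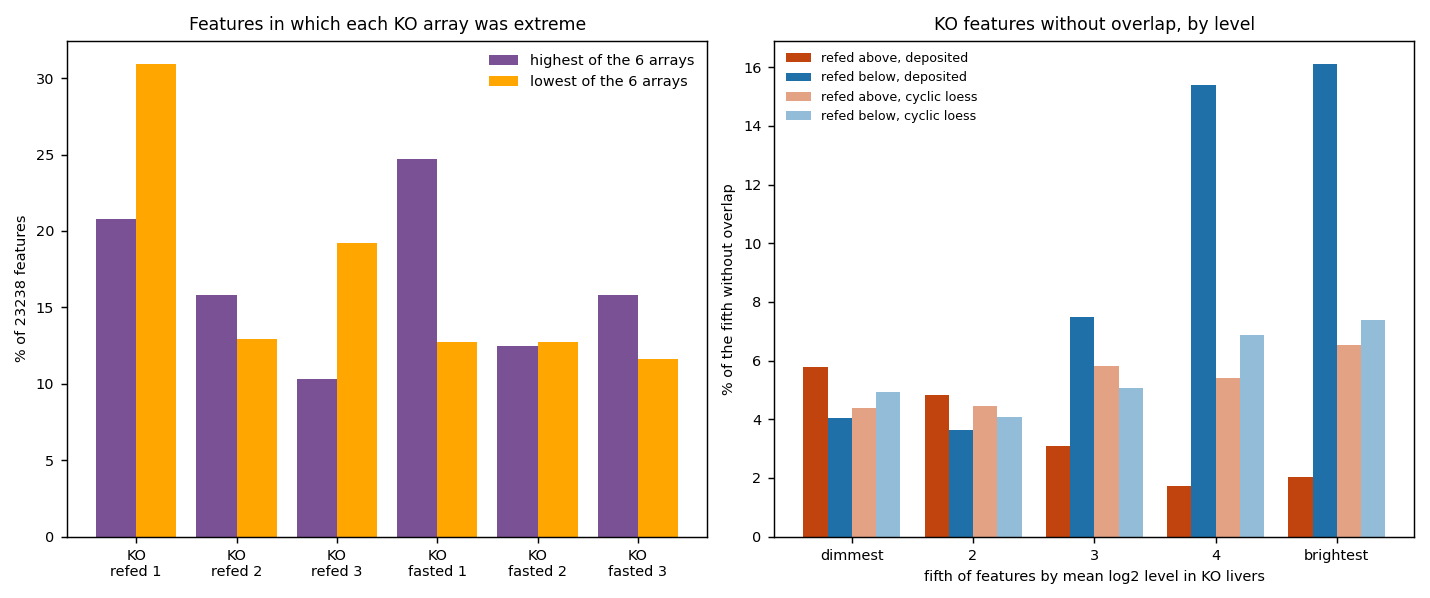
Left, bars give for each of the 6 KO (L-FoxO1,3,4) arrays the percentage of 23238 features in which it was the highest or the lowest of the 6; refed replicate 1 was lowest in 30.9%. Right, bars give the percentage of features, in 5 equal groups by mean log2 level, whose 3 refed arrays all lay above or all below the 3 fasted arrays, as deposited and after cyclic loess; the 16.1% below in the brightest group was 7.40% after cyclic loess.

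The genes named next were taken by a rule. It took genes whose 3 refed KO arrays did not overlap the 3 fasted ones and whose unadjusted p was under 0.05, and ordered them by size. Of 14939 features with 1 gene, 123 such features were higher and 754 lower in refed KO livers. Over all 23238 features, named or not, the same rule took 295 higher and 1097 lower. The 10 named genes with the largest difference in each direction are described. Lack of overlap in the KO arrays was used to choose them and is no finding. None passed the test in KO livers (adjusted p = 0.725 for each of the 20). The WT arrays were not used by the rule, though the rule was set with earlier results of these data known.

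Promoter sequences of 3 of these genes are shown for orientation and were chosen after values were seen. Their refed and fasted arrays did not overlap in either genotype, but 15 of the 20 genes shared this, so it does not single them out. Depp1 is a known FoxO target, and Igfbp2 and Cd36 were the only named genes with a motif match. Igfbp2 had 2 windows, and for each gene the window with the most motifs was taken. The sequences are the 250 bases before the annotated start, 5′ to 3′ in the direction of the gene, from RefSeq (GRCm38.p6). Capitals mark an E-box (CACGTG) in Igfbp2 (chr1:72824230-72824479, plus strand) and a nuclear receptor half-site (AGGTCA or its reverse complement TGACCT) in Cd36 (chr5:17835897-17836146, minus strand). Depp1 (chr6:116650434-116650683, plus strand) held none of the motifs searched.
Igfbp2: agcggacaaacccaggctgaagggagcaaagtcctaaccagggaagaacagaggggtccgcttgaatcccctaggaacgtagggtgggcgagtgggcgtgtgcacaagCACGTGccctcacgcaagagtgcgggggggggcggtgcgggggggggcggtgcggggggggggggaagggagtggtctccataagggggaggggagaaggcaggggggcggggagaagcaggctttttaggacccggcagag
Depp1: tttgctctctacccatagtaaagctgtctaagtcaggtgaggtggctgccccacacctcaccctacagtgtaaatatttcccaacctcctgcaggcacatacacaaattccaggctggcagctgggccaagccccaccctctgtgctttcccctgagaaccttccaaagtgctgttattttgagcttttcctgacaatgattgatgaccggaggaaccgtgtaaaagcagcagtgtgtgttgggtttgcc
Cd36: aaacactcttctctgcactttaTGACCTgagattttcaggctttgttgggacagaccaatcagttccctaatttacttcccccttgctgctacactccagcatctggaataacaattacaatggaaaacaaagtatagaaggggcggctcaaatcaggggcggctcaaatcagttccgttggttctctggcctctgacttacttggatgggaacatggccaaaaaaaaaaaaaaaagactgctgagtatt
The third motif searched was the FoxO site GTAAACA or its reverse complement TGTTTAC. On both strands, 3.17% of 32851 promoter windows of this length held the FoxO site, 6.02% the E-box and 14.0% the half-site. Windows were found for 16 of the 20 genes, and the FoxO site was in 0 of them, the E-box in 1 (Igfbp2) and the half-site in 1 (Cd36). A match is a description of letters, and no match says only that these letters are absent from this window.

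Among the 10 genes taken on the higher side, 3 are described first, Cidea, Cd36 and Elovl3. Cidea, which encodes a lipid droplet protein that enlarges droplets, had log2 values of 8.95, 7.51 and 5.46 in refed KO livers, against 4.50, 4.36 and 3.87 in fasted KO livers. The refed arrays spread widely and replicate 3 was closest to the fasted group. The means were 7.30 ± 1.75 in refed KO and 4.24 ± 0.332 in fasted KO livers (SD, n = 3 each), an 8.35-fold difference (log2 3.06, SE 0.818), and the log2 difference was 2.24 without refed replicate 1. In WT livers the log2 difference of Cidea was 3.72, with refed arrays at 5.03, 8.45 and 9.89. Cd36, a fatty acid transporter at the cell surface, had 11.17, 10.46 and 9.68 in refed KO livers, against 9.51, 8.71 and 7.80 in fasted KO livers. The groups were close, since the lowest refed array exceeded the highest fasted one by little. Its log2 difference was 1.76 (SE 0.525) in KO livers, 1.40 without refed replicate 1, and 1.44 in WT livers. Elovl3, which elongates very long chain fatty acids, had 11.09, 11.62 and 11.01 in refed KO livers, against 9.78, 9.67 and 9.05 in fasted KO livers. The groups were well apart. The difference was 3.34-fold (log2 1.74, SE 0.253), and 1.81 on the log2 scale without refed replicate 1. In WT livers its log2 difference was 1.46, also without overlap. There the groups were close, with the lowest refed array at 10.91 and the highest fasted one at 10.85.

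Of the other genes on the higher side, Ntrk2 had the largest difference. Ntrk2, which encodes the neurotrophin receptor TrkB, had 10.23, 9.82 and 9.13 in refed KO livers, against 7.81, 7.47 and 5.96 in fasted KO livers, a log2 difference of 2.65 (SE 0.524), or 2.40 without refed replicate 1. In WT livers 1 fasted array, at 10.05, lay among the refed arrays, and the log2 difference was 1.99. Csad, an enzyme of taurine synthesis, had 9.33, 10.70 and 10.08 in refed KO livers, against 8.89, 8.71 and 8.33 in fasted KO livers. The log2 difference was 1.39 (SE 0.352) in KO livers, 1.75 without refed replicate 1, and 1.04 in WT livers, and the groups did not overlap in either genotype. Gprc5b, an orphan G protein-coupled receptor, was higher by 1.55 on the log2 scale in refed KO livers and by 1.62 in refed WT livers. In KO livers the value was 0.93 without refed replicate 1. St3gal6, a sialyltransferase, had log2 differences of 1.41 in KO livers, 0.95 without refed replicate 1, and 1.23 in WT livers. Slc8a1, a sodium-calcium exchanger, had log2 differences of 1.50 in KO livers, 1.38 without refed replicate 1, and 0.97 in WT livers. Taar7b, a trace amine-associated receptor gene, had 1.45 in KO livers, 1.21 without refed replicate 1, and 0.88 in WT livers, and both genes overlapped in WT livers.

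Egr1, an immediate-early transcription factor gene, was higher by 1.64 (SE 0.582) on the log2 scale in refed KO livers, with 7.59, 9.75 and 7.62 in refed and 6.56, 6.96 and 6.53 in fasted KO livers. Replicate 2 was far above the other refed arrays, and the log2 difference of Egr1 was 0.93 without it and 2.01 without refed replicate 1. Fos, an immediate-early gene added after its values were seen, had 4.91, 8.62 and 5.22 in the same refed KO arrays and 5.02, 5.16 and 5.46 in fasted KO livers, so it was high in that array alone. In WT livers the log2 difference of Egr1 was 0.32 and the groups overlapped.

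On the lower side, Hsd17b6 had the largest difference of the 10 genes taken. Hsd17b6, a hydroxysteroid dehydrogenase, had 6.12, 8.24 and 9.75 in refed KO livers, against 11.45, 10.63 and 11.50 in fasted KO livers. The refed arrays were scattered and all below the fasted group. Its log2 difference was -3.15 (SE 0.865) in KO livers, -2.20 without refed replicate 1, and -3.26 in WT livers. Cyp8b1, the sterol 12-alpha-hydroxylase that sets the share of cholic acid among bile acids, had 7.55, 9.07 and 9.67 in refed KO livers, against 11.20, 10.87 and 10.80 in fasted KO livers. The fasted arrays were tight and the refed ones were not. The log2 difference was -2.20 (SE 0.516) in KO livers, -1.59 without refed replicate 1, and -2.93 in WT livers. Sult5a1, a sulfotransferase gene, had 4.54, 4.80 and 5.30 in refed KO livers and 6.82, 6.23 and 6.23 in fasted KO livers. Its log2 difference was -1.55 (SE 0.254) in KO livers, -1.38 without refed replicate 1, and -1.59 in WT livers. Fasted WT arrays of Sult5a1 were at 5.35, 6.00 and 8.32, and refed WT arrays at 5.10, 4.74 and 5.04. Thus 1 fasted WT array was far above the rest.

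Igfbp2, Depp1 and Apom were also among the 10 genes on the lower side. Igfbp2, a secreted binding protein of insulin-like growth factors, had 6.83, 8.01 and 9.10 in refed KO livers, against 10.83, 10.25 and 10.36 in fasted KO livers. Refed replicate 1 was the lowest, and replicate 3 still lay below every fasted array. Its mean was 7.98 ± 1.13 in refed KO and 10.48 ± 0.311 in fasted KO livers (SD, n = 3 each), a 0.177-fold level (log2 -2.50, SE 0.543), and the log2 difference was -1.93 without refed replicate 1. In WT livers it was -2.40, with an adjusted p of 0.189 that also missed the threshold (limma on the 6 WT arrays). Depp1, a regulator of autophagy and known FoxO target, had 5.06, 6.02 and 5.90 in refed KO livers, against 8.46, 7.39 and 7.14 in fasted KO livers. The lowest fasted array was above the highest refed one. The log2 difference was -2.001 (SE 0.411) in KO livers, -1.70 without refed replicate 1, and -1.997 in WT livers. KO minus WT of this refeeding difference was -0.00437 (limma interaction on 12 arrays, SE 0.645, adjusted p = 0.999). The level of Depp1 itself was lower in KO livers in both states. Its means were 5.66 in refed KO against 7.71 in refed WT livers, and 7.66 in fasted KO against 9.71 in fasted WT livers. No test of this genotype difference is given. Apom, an apolipoprotein of HDL, had 7.18, 7.85 and 8.33 in refed KO livers and 9.76, 9.09 and 9.42 in fasted KO livers. Its log2 difference was -1.64 (SE 0.319) in KO livers, -1.33 without refed replicate 1, and -2.02 in WT livers.

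The remaining 4 genes on the lower side were Rgs16, Fbxo21, Tnfaip8l1 and Dipk1a. Rgs16, a regulator of G protein signalling, had 6.33, 6.62 and 7.32 in refed KO livers, against 8.14, 8.13 and 8.05 in fasted KO livers. The fasted arrays were nearly equal. Its log2 difference was -1.35 (SE 0.253) in KO livers, -1.14 without refed replicate 1, and -2.71 in WT livers, and the interaction did not pass (adjusted p = 0.924). Fbxo21, an F-box protein of ubiquitin ligases, had log2 differences of -1.53 in KO livers, -1.57 without refed replicate 1, and -1.38 in WT livers. Tnfaip8l1 had a log2 difference of -1.30 in KO livers, -1.33 without refed replicate 1, and -0.63 in WT livers, where the groups overlapped. Dipk1a had -1.27 in KO livers, -1.13 without refed replicate 1, and -1.66 in WT livers. Its KO groups were barely apart, with refed replicate 3 at 7.706 and fasted replicate 3 at 7.725.

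**Figure D2:**
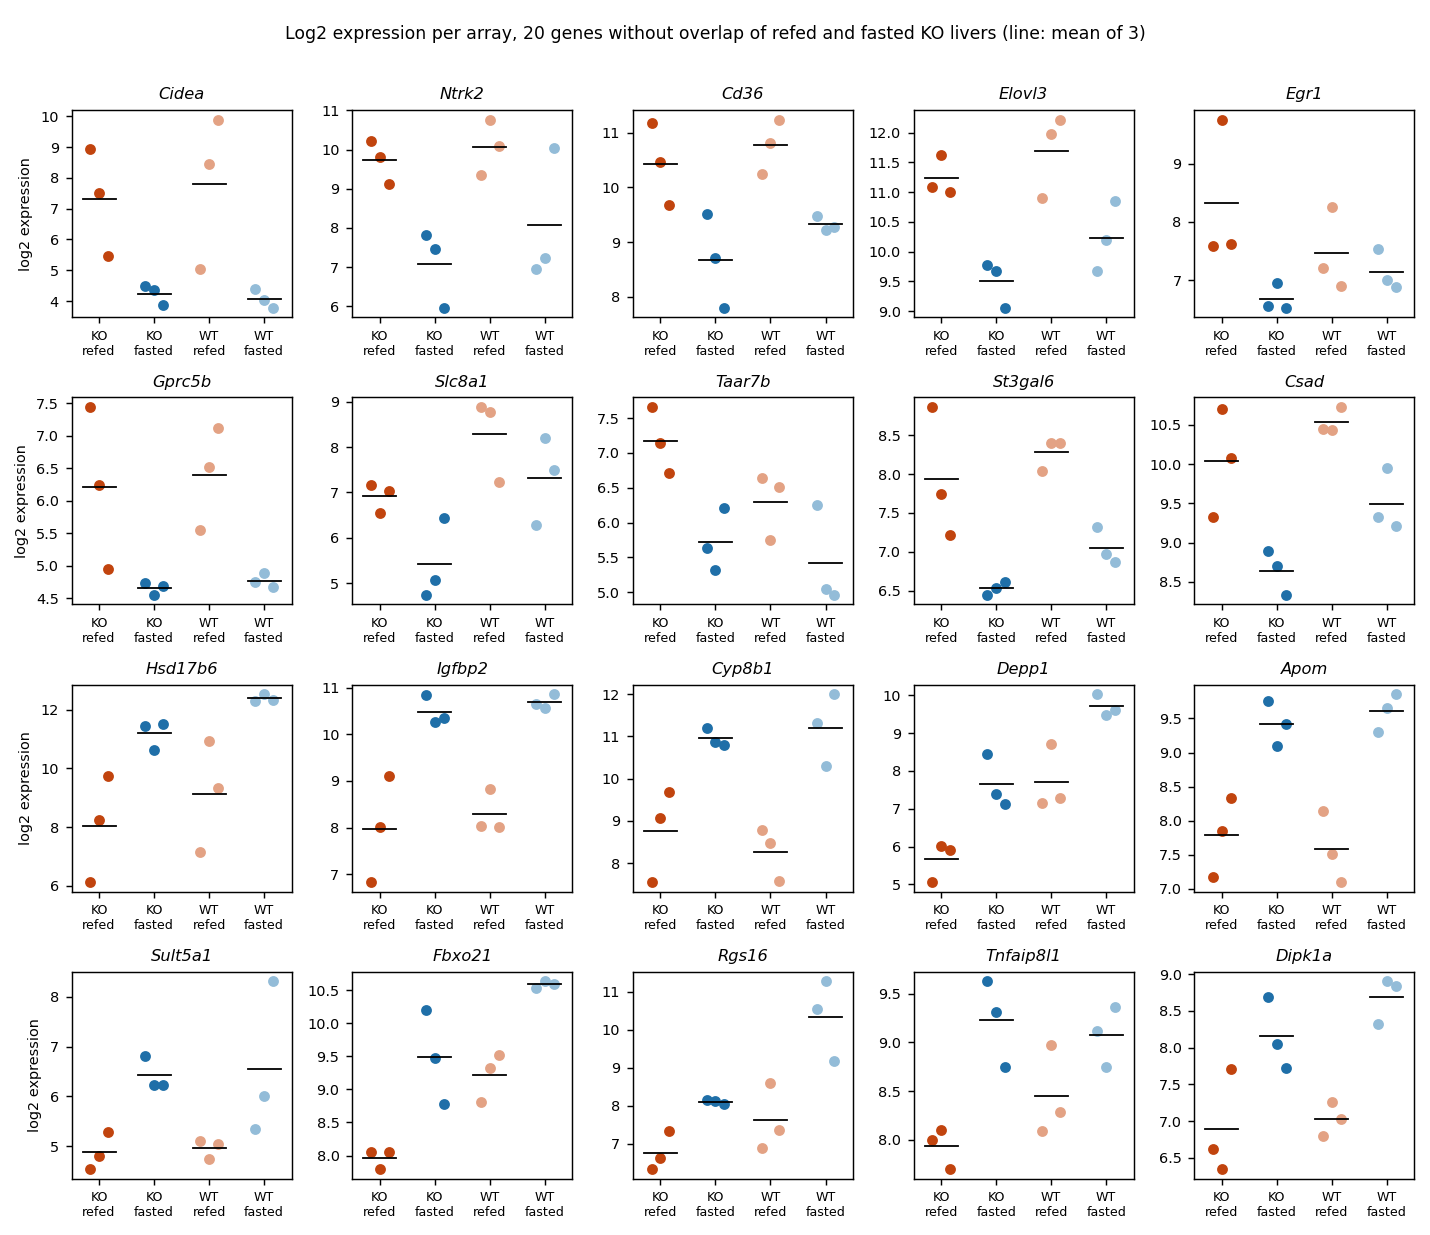
Each panel gives the log2 expression of 1 gene in each array (points) and the mean of 3 arrays (line) for KO (L-FoxO1,3,4) and WT livers, refed left of fasted. The upper 10 genes were higher and the lower 10 lower in refed KO livers, by construction of the rule; 15 of the 20 also showed no overlap in WT livers, in the same direction.

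The WT arrays gave the same direction for all 20 genes. The groups did not overlap in WT livers for 15 of them, 6 of the 10 higher genes and 9 of the 10 lower ones. Over all features, 52.6% had the same direction in both genotypes and 6.07% lacked overlap in WT livers in the direction seen in KO livers. Of the 155 features past a log2 difference of 1 in KO livers, 116 (74.8%) had the same direction in WT livers, 37 lacked overlap in WT in that direction and 4 in the opposite one. The next 15 genes under the rule past that size, which start with Gstm3 (log2 1.31) and Gypc (log2 -1.23), had the same direction in WT in 14 cases and no overlap in 7. In the WT livers alone 1 of 23238 features (0.0043%) passed the test (limma, adjusted p = 0.046), and it was none of the 20. Before adjustment the WT count was 1290 (5.55%). Refed WT arrays lay above all fasted ones in 1203 features (5.18%) and below in 1110 (4.78%), and were past a log2 difference of 1 in 92 (0.396%) higher and 73 (0.314%) lower. Lack of overlap in the same direction in both genotypes was found for 74 features higher (0.318%) and 217 lower (0.934%) in refed livers. The smallest adjusted p among the 20 genes in WT livers was 0.189.

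**Figure D3:**
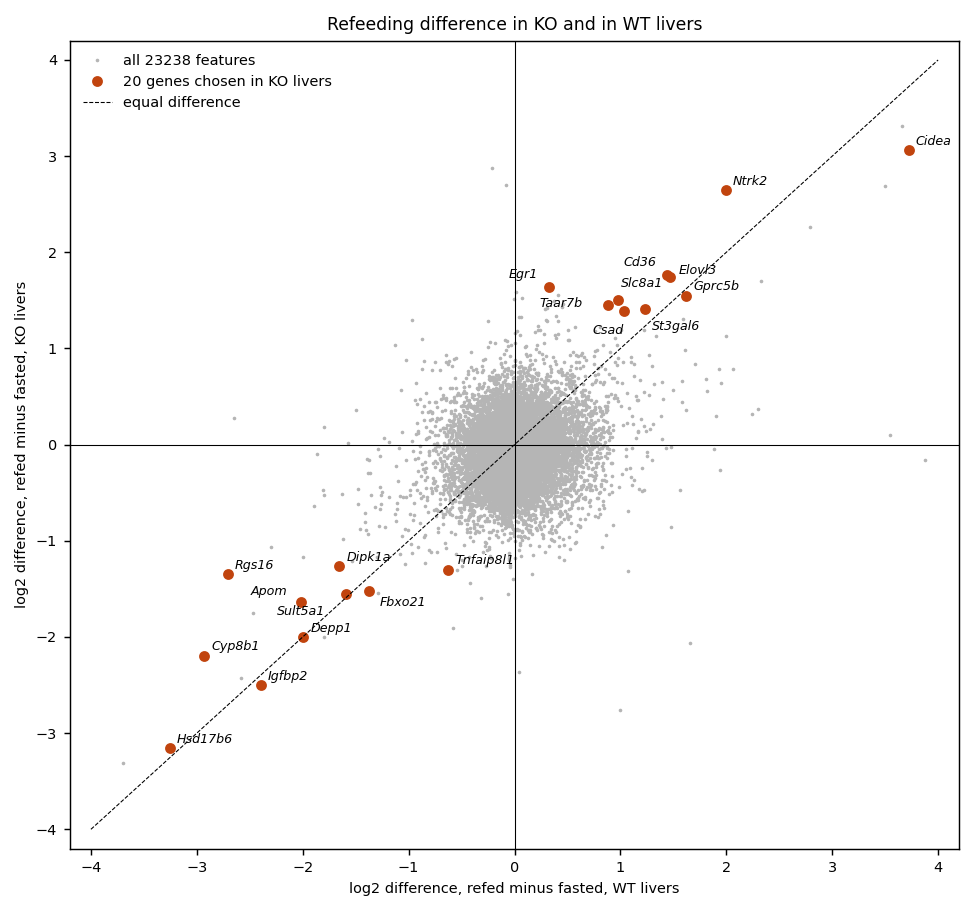
Each point is a feature, placed by its log2 difference between refed and fasted WT livers (horizontal) and between refed and fasted KO livers (vertical); these differences share no array. The 20 labelled genes, chosen in KO livers, all lie in the quadrants of equal sign, from Hsd17b6 (-3.26 in WT, -3.15 in KO) to Cidea (3.72 and 3.06).

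Read from the other genotype, features chosen in WT livers had smaller differences in KO livers. The 58 features with no overlap and a log2 difference of at least 1 in WT had a median of 0.41 in KO livers, 0.26 without refed replicate 1, and 1.29 in WT livers, and 45 of them were on the higher side in KO livers. The 53 features on the lower side in WT had medians of -0.71 in KO livers, -0.63 without refed replicate 1, and -1.38 in WT livers, and 47 were on the lower side in KO livers. The WT values chose these features, so setting the medians of the genotypes side by side is no test of a difference. The direct test found 0 of 23238 features (0%) whose refeeding difference differed between the genotypes (limma interaction on 12 arrays), and the smallest adjusted p was 0.924. Before adjustment the count was 1133 (4.88%). The arrays lacked overlap in opposite directions in KO and WT livers for 62 features (0.267%). Without fasted KO replicate 3, 1 feature passed.

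No gene of the lists for the fasting and refeeding switch passed the test in KO livers. Over all features, 40.3% had a positive and 59.7% a negative log2 difference in KO livers, and 51.6% a positive one in WT livers. In the list of 7 gluconeogenic genes found of 8, 0 passed the test; 1 had a positive and 6 a negative log2 difference, with a median of -0.10 (-0.07 without refed replicate 1) beside -0.05 over all features. After cyclic loess 3 of the 7 were positive. Pck1, which encodes the cytosolic enzyme that makes phosphoenolpyruvate, had 11.05, 12.71 and 12.02 in refed KO livers and 11.61, 12.17 and 12.29 in fasted KO livers. The groups overlapped fully, and its log2 difference was -0.10 (SE 0.427) in KO livers, 0.34 without refed replicate 1, and 0.01 in WT livers. G6pc, the catalytic subunit of glucose-6-phosphatase, had 11.35, 12.14 and 12.44 in refed KO and 10.52, 12.20 and 11.15 in fasted KO livers. Its log2 difference was 0.69 (SE 0.473) in KO livers, 1.00 without refed replicate 1, and -0.21 in WT livers. Textbook knowledge has both genes lower after refeeding, and neither genotype showed this beyond the spread of its arrays.

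Genes of insulin signalling included some without overlap. Of 8 found of 10, 0 passed, 2 were positive and 6 negative, with a median of -0.24 (-0.16 without refed replicate 1). Refed arrays lay below fasted ones in 4, beside 9.33% of all features and 16.1% of the brightest group. These 4 were Foxo1 (log2 difference -0.73), Foxo4 (-0.79, or -0.49 without refed replicate 1), Irs1 (-0.39), an insulin receptor substrate, and Insr (-0.34), the receptor itself. Foxo1 and Foxo4 lacked overlap in WT livers too, with log2 differences of -0.59 and -1.12. After cyclic loess the differences of Irs1 and Insr were -0.22 and -0.19, and the list stood at 4 positive and 4 negative. Igfbp1, a FoxO target that insulin lowers, had 6.07, 8.60 and 7.08 in refed KO livers and 6.34, 6.31 and 7.37 in fasted KO livers. Its groups overlapped, and its log2 difference of 0.58 was 1.17 without refed replicate 1. In WT livers the log2 difference of Igfbp1 was -0.12. Its means were 7.25 in refed KO against 8.56 in refed WT livers, and 6.67 in fasted KO against 8.68 in fasted WT livers.

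Most lipogenic and glycolytic genes overlapped between the feeding states. Of 12 found of 14, 0 passed, 7 were positive and 5 negative, with a median log2 difference of 0.07 (0.13 without refed replicate 1), and 9 were positive after cyclic loess. Fasn, the fatty acid synthase, had 11.17, 11.21 and 11.23 in refed KO and 11.02, 10.90 and 11.24 in fasted KO livers. 1 fasted array exceeded all the refed ones. Srebf1, the gene of SREBP-1, had a log2 difference of -0.26 (SE 0.327), and Pklr, the liver pyruvate kinase and a ChREBP target, had -0.56 (SE 0.353), or -0.15 without refed replicate 1. Thrsp, a lipogenic gene that responds to thyroid hormone and carbohydrate, had a log2 difference of 0.51 without overlap in KO livers, 0.28 without refed replicate 1, and -0.08 in WT livers. The 6 cholesterol synthesis genes found of 10 had a median of 0.24 in KO livers (4 positive, 0 passed), 0.18 without refed replicate 1, and -0.55 in WT livers (0 positive). The interaction passed for none of them (smallest adjusted p 0.924). Fasted KO replicate 2 was the lowest fasted KO array in each of these 6 genes. Hmgcs1 had 11.57, 11.45 and 11.32 in refed KO livers and 11.80, 9.81 and 11.52 in fasted KO livers. Cyp51 had 10.19, 10.47 and 10.41 in refed KO and 10.44, 8.79 and 10.50 in fasted KO livers. In both genes only that fasted array lay below all the refed ones.

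Fatty acid oxidation and ketogenesis genes were mostly near 0. Of 10 found of 14, 0 passed, 2 were positive and 8 negative, with a median log2 difference of -0.16 that was -0.06 without refed replicate 1 and -0.03 after cyclic loess. Pdk4, the kinase that inhibits pyruvate dehydrogenase and is induced by fasting, had 8.06, 6.97 and 6.53 in refed KO livers, against 6.33, 6.45 and 6.33 in fasted KO livers. It was thus higher in refed livers, by 0.81 on the log2 scale (SE 0.373), or 0.38 without refed replicate 1, and by 1.30 in WT livers. Fgf21, a liver hormone gene responsive to fasting and to sugar, was higher by 0.22 in KO and 0.44 in WT livers, without overlap in either. Bdh1, an enzyme of ketone body synthesis, was lower in refed livers, with log2 differences of -0.61 in KO and -0.33 in WT livers and no overlap in either.

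The 3 other lists had 0 genes past the test and 0 without overlap in KO livers. The 6 ribosome biogenesis genes found of 9 had a median log2 difference of -0.26, which was -0.08 without refed replicate 1 and -0.13 after cyclic loess. The 8 circadian genes found of 10 had a median of 0.04 (0.06 without refed replicate 1), with 4 positive, or 6 after cyclic loess. Dbp, a clock output gene, had the largest negative value of these, -0.64 (SE 0.445). The 9 ER stress genes, all found, had a median of -0.16, or -0.02 without refed replicate 1. Among them was Asns, the amino acid response gene asparagine synthetase, with 6.38, 7.40 and 5.63 in refed KO and 7.29, 6.05 and 5.77 in fasted KO livers. Its KO groups overlapped, whereas WT values were 9.87, 8.39 and 7.80 in refed and 4.59, 5.17 and 5.66 in fasted livers. The log2 difference was 0.10 (SE 0.554) in KO and 3.55 in WT livers, and the difference of these did not pass (limma interaction -3.45, adjusted p = 0.924).

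**Figure D4:**
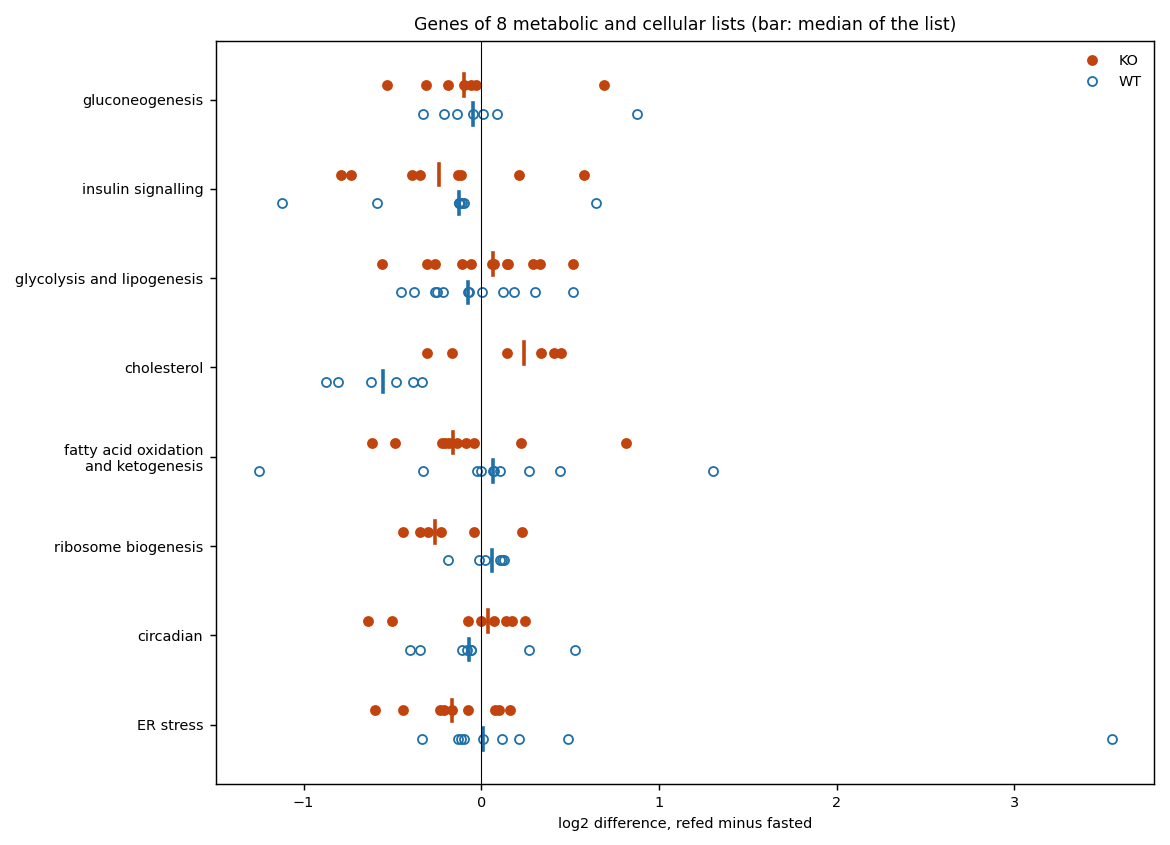
Points give the log2 difference, refed minus fasted, of each gene found in 8 lists, for KO (L-FoxO1,3,4; filled) and WT (open) livers; bars mark the list medians. The KO medians lie between -0.26 and 0.24, no gene passed the test in KO livers, and the open point at 3.55 is Asns in WT livers.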

How the data were processed

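Liver total RNA was hybridised to 1-colour arrays after biotin labelling, per the labels' protocols. The authors deposited 1 log2 value per feature and array; RMA (background correction, quantile normalization, probe summary) and Partek are named in the submitters' processing notes, with versions, build and filters not given in the sources used here. The log2 scale was read from the values (1.84 to 14.2, 0 missing). Signal over background was not given, and the number of arrays limits the precision.

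Genes were taken from the array's annotation through gene IDs; 14884 of 14939 single-gene features matched the RefSeq gene table. Features of a gene were kept apart.

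Refed minus fasted KO livers were fitted with limma 3.58.1 in R 4.3.3 (default eBayes, 6 arrays, 4 residual and 2.42 prior degrees of freedom), and the genotype interaction on 12 arrays. P-values were two-sided, with Benjamini-Hochberg adjustment over all 23238 features and a threshold of 0.05. The fit was tested on simulated data. Replicates were numbered in accession order.

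The arrays, gene lists and rules were chosen with earlier results of these data known. Genes named in the text followed a rule: no overlap in KO arrays, unadjusted p under 0.05, the 10 largest differences each way, plus the genes of 8 lists. Fos, Kdm5d, Eif2s3y, Gstm3, Gypc and the genes under other observations were added after seeing values, as were the motifs and promoters.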

Additional observations from a re-analysis of the deposited data

How the results depend on the processing

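No setting produced a feature past the threshold between refed and fasted KO livers: the count was 0 in the fit to all 12 arrays (smallest adjusted p 0.37), after median centring, cyclic loess, array weights, trend and robust eBayes, without the 30% dimmest features, at an adjusted p under 0.1 and without each KO array. The count at an unadjusted p under 0.05 was 2428 with array weights, against 1548, and 879 to 2515 with 1 array left out, lowest without fasted replicate 1 and highest without refed replicate 2. The count past a log2 difference of 1 was 161 to 373 with 1 array left out, against 155: it was 373 without refed replicate 2, 328 without refed replicate 3 and 241 without fasted replicate 3. Features without overlap numbered 4631 to 6578 with 1 array left out, against 2980; fewer arrays overlap less by construction. The interaction gave 0 features under each alternative and 0 to 1 with 1 array left out, the 1 without fasted KO replicate 3. The 20 named genes kept their direction in all 240 values under alternatives and 0 passed; the same arrays chose them, so this is no sign of stability. Of 948 values of the other genes, 4 moved by at least the spread within groups, all after cyclic loess. No paired analysis was possible because the labels give no replicate numbers. 3 arrays per group limit the precision, and signal over background was not given.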

Other observations

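Further genes were chosen after their values were seen. Cyp2b10, a xenobiotic-metabolising cytochrome P450, had the largest negative log2 difference of all features in KO livers (-3.31) and -3.70 in WT livers. Its values were 4.93, 5.20 and 8.70 in refed KO livers and 8.51, 10.56 and 9.68 in fasted KO livers, so 1 refed array overlapped the fasted group. Sult1e1, the estrogen sulfotransferase, had log2 differences of 2.27 in KO and 2.79 in WT livers, with overlap in both. Gstp3, a glutathione transferase gene, had 7.997, 7.49 and 6.99 in refed KO livers and 11.82, 11.80 and 7.13 in fasted KO livers, so fasted replicate 3 lay with the refed arrays. All WT arrays were at 8.99 or below. The WT direction was opposite, with refed arrays at 8.18, 8.99 and 8.62 and fasted ones at 7.77, 7.71 and 7.31. Its log2 differences were -2.76 in KO and 1.00 in WT livers, and the interaction did not pass (limma, -3.76, adjusted p = 0.924). Slc1a4, an amino acid transporter gene, had a log2 difference of 0.13 in KO and 1.17 in WT livers. The difference of these did not pass (limma interaction -1.04, adjusted p = 0.924).

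Fasted KO replicate 3 also stood apart from the other fasted KO arrays in Lcn2, Mt2 and Cxcl1, stress and inflammation genes picked after their values were seen. Lcn2, an acute-phase gene, had 11.09, 12.55 and 12.22 in refed KO livers and 9.09, 8.97 and 12.70 in fasted KO livers. Mt2, a metallothionein gene, had 11.10, 12.52 and 12.94 in refed and 9.72, 10.31 and 13.01 in fasted KO livers, and Cxcl1, a neutrophil chemokine gene, had 6.82, 9.60 and 8.22 in refed and 6.20, 5.90 and 9.44 in fasted KO livers. In each of these genes the fasted replicate was above the other fasted KO arrays by more than they differed from each other. For Mt2, however, the WT arrays lay at 13.00 to 13.34, so this replicate was at the WT level and the other fasted KO arrays were low. Fasted WT arrays were at 9.39, 10.12 and 11.37 for Lcn2 and at 6.59, 6.03 and 6.46 for Cxcl1, below this replicate.

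The 1 feature called between refed and fasted WT livers was Abhd1. It had 7.90, 9.85 and 9.56 in refed KO and 7.89, 9.71 and 9.99 in fasted KO livers, against 7.83, 8.08 and 7.84 in refed WT and 9.86, 9.86 and 9.64 in fasted WT livers. The 12 arrays thus lay at 7.83 to 8.08 or at 9.56 to 9.99, and in KO livers both levels occurred in both feeding states.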
